A study of Mus musculus with 17 samples.

Results

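Mouse embryonic stem cells lacking *Usb1* were compared with their wild-type counterparts in self-renewal culture. The members of this comparison are the 5 libraries of day 0, out of 17 in the series. They were chosen by their genotype and time point and not by any measured value. *Usb1* encodes an exonuclease that trims the 3′-end of U6 snRNA, the small nuclear RNA at the catalytic centre of the spliceosome. TUT1 adds uridines to this end, USB1 removes uridines and leaves a cyclic phosphate, and the Lsm2-8 ring binds it. Embryonic stem cells self-renew through a network of transcription factors around Oct4, Sox2 and Nanog, and leave this state when retinoic acid (RA) is given.

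Wild-type cells were of the R1 line (R1/E), a male embryonic stem cell line, and had 2 replicates at day 0. *Usb1* knockout cells, derived from it by CRISPR/Cas9 editing, had 3 replicates, all from 1 line (KO-1) whose mutated mRNA encodes a truncated protein. Differences that belong to the clone and differences that follow from the edit cannot be told apart in these libraries. The replicates are described in the methods as biological. The p-values measure the spread between libraries of 1 line per genotype. The labels give RA differentiation as the treatment of all 17 libraries, and the day 0 libraries are those taken before RA was added. The other 12 libraries, 3 for each genotype after 1 and after 3 days of RA, served to set the spread and to compare the days. Splicing and U6 itself were not analysed here.

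Expression was given as TPM, a level scaled by gene length and to the same total in every library. Reads on genes recovered from these values numbered 15404379 to 16686771 in the day 0 libraries. Replicate 1 of the wild type stood apart with few low-read genes. It had 17090 genes above 0 and 239 genes with a single read. The other wild-type library had 22314 and 1352 such genes, and the knockout libraries 23022 to 24319 and 2150 to 2361. The comparisons therefore turned on well-expressed protein-coding genes, those with a mean of at least 10 TPM over the 5 libraries, and counts were also given without this library. All 7 markers of embryonic stem cells were high in the 5 libraries, at a summed level of 8888 to 8927 TPM in wild-type and 8804 to 9658 TPM in knockout cells. Markers of feeder fibroblasts (10 genes, 8 of them under 1 TPM in all 5 libraries) summed to at most 9.01 TPM, and those of trophectoderm (5 genes, 4 under 1 TPM) to at most 2.30 TPM.

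*Usb1* mRNA (chromosome 8, 95332284 to 95347507, GRCm38) was lower in each knockout library and still present. It was at 39.95 and 37.1 TPM in R1 cells, against 15.5, 15.2 and 17.9 TPM in KO-1 cells, without overlap. The difference was tested with limma on the log2(TPM + 1) scale, over the 17768 genes that reached 1 TPM in 2 or more of these libraries, with Benjamini-Hochberg adjustment over all of them (log2 fold change −1.20, SE 0.12, adjusted p = 2.59e-05). On this scale the change of genes of low TPM is understated. A gene that reached 1 TPM in 1 genotype only entered through the genotype where it was high. Among the genes below this held for *Dppa3*, *Rhox9*, *Twist1* and *Cdkn2c*, high in knockout cells. It also held for *Cubn*, *Srgn*, *Gata6*, *Drc7*, *Eif2s3y*, *Ddx3y*, *Uty* and *Uba1y*, high in wild-type cells. A gene was called when its adjusted p was under 0.05 and its change at least 2-fold. *Usb1* was called at day 0 and at day 1 (log2 fold change −1.34), and at day 3 its change of −0.93 passed the test short of 2-fold.

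The partners of USB1 in U6 biogenesis and binding differed less. Of 23 genes of that list, 5 had an adjusted p under 0.05, 4 of them higher and *Usb1* alone lower, where 6.72% of all genes tested were higher and 9.03% lower at this threshold. The median log2 fold change of the list was 0.03, and that of all genes tested −0.03. *Lsm8*, the subunit that sets the nuclear Lsm2-8 ring apart from its cytoplasmic counterpart, was at 16.4 and 15.2 TPM in R1 cells, against 25.9, 23.7 and 24.8 TPM in KO-1 cells (log2 fold change 0.62, SE 0.10, adjusted p = 9.93e-04). *Lsm7* and *Lsm4*, further subunits of the ring, rose by log2 fold changes of 0.55 and 0.53, and *Snu13*, which binds U4 snRNA in the U4/U6 particle, by 0.25. The other enzymes acting on U6 did not pass the test. *Tut1*, the enzyme that acts before USB1, was at 73.6 and 96.8 TPM in R1 cells, against 90.6, 80.2 and 87.4 TPM in KO-1 cells (log2 fold change 0.03, SE 0.10, adjusted p = 0.886). *Sart3*, which anneals U4 to U6, was at 154 and 144 TPM in R1 cells, against 129, 132 and 134 TPM in KO-1 cells (log2 fold change −0.18, SE 0.06, adjusted p = 0.0777). *Mettl16*, which methylates U6, was at 25.5 and 26.3 TPM in R1 cells, against 26.6, 27.2 and 27.8 TPM in KO-1 cells (log2 fold change 0.07, SE 0.09, adjusted p = 0.658). Only 1 gene of the list was higher without wild-type replicate 1, and *Usb1* stayed lower. Among 26 genes of 3′ exonucleases and RNA tailing, 1 rose and 5 fell, where 9.03% of all genes tested fell. No fall was over 2-fold, and 0 falls were left without wild-type replicate 1, after quantile normalization and in the 5 libraries alone. The gene with the lowest adjusted p there was *Exosc10*, the nuclear exosome's RNA-processing subunit, at 146 and 145 TPM in R1 cells, against 129, 128 and 124 TPM in KO-1 cells (log2 fold change −0.19). Of 36 core spliceosome proteins 4 rose and 0 fell, with *Sf3b5* at 78.97 and 84.2 TPM in R1 cells, against 94.01, 107 and 105 TPM in KO-1 cells (log2 fold change 0.32). Without wild-type replicate 1, 1 of them rose, and in the 5 libraries alone 0 rose and 1 fell.

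The core of the pluripotency network was expressed at like levels in both genotypes. *Pou5f1*, which encodes Oct4, was at 1393 and 1371 TPM in R1 cells, against 1279.9, 1466 and 1425 TPM in KO-1 cells. Its partner *Sox2* was at 873 and 933 TPM in R1 cells, against 881, 996 and 1022 TPM in KO-1 cells (log2 fold change 0.10, SE 0.08, adjusted p = 0.446). *Nanog* was at 803 and 836 TPM in R1 cells, against 764, 809 and 859.8 TPM in KO-1 cells. The libraries of the genotypes overlapped for all 3, none passed the test, and the sign of each difference changed under quantile normalization or under scaling to an equal median. *Klf4* (log2 fold change −0.03, SE 0.08, adjusted p = 0.832), *Zfp42* (log2 fold change 0.01, SE 0.07, adjusted p = 0.96) and *Dppa5a* (log2 fold change 0.12, SE 0.13, adjusted p = 0.549) did not pass the test either, with the groups of *Dppa5a* not overlapping. *Esrrb* was at 430.0 and 449.8 TPM in R1 cells, against 488, 484 and 510.2 TPM in KO-1 cells, with each knockout library above both wild-type ones but no pass of the test (log2 fold change 0.17, SE 0.10, adjusted p = 0.279).

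Around this core, 8 of the 20 genes of the core pluripotency list and 5 of the 20 of the naive list passed the test, most by less than 2-fold. Of all genes tested, 6.72% passed as higher and 9.03% as lower. In the core list 2 rose and 6 fell, with a median log2 fold change of −0.05, and in the naive list 3 rose and 2 fell, with a median of −0.01. These counts became 1 and 5, and 1 and 1, without wild-type replicate 1. Scaling to an equal median left 2 rises and 2 falls in the core list. The largest fall was that of *Dnmt3l*, a catalytically inactive partner of the de novo DNA methyltransferases (chromosome 10, 78041947 to 78063622), at 67.6 and 79.2 TPM in R1 cells, against 15.8, 15.3 and 15.9 TPM in KO-1 cells (log2 fold change −2.15, SE 0.12, adjusted p = 1.18e-07). *Nr5a2*, a nuclear receptor that can act on the *Pou5f1* enhancer, was at 57.9 and 51.7 TPM in R1 cells, against 26.4, 26.2 and 28.8 TPM in KO-1 cells (log2 fold change −0.99, SE 0.14, adjusted p = 4.88e-04). *Utf1*, a chromatin protein of undifferentiated cells, fell from 1512 and 1645 to 1015, 1108 and 1175 TPM. *Trim28*, the corepressor recruited by KRAB zinc finger proteins, fell from 2517 and 2592 to 1878, 2009 and 1991 TPM (log2 fold change −0.38). *Sall4*, *Dppa4* and *Dppa2* fell, with log2 fold changes of −0.31, −0.35 and −0.28.

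The rises in these lists were those of *Tcl1*, a cofactor of the kinase Akt, at 85.3 and 98.4 TPM in R1 cells, against 170.2, 186 and 187 TPM in KO-1 cells (log2 fold change 0.97, SE 0.28, adjusted p = 0.0295), and *Epcam*, an epithelial adhesion molecule of these cells, at 86.1 and 101 TPM in R1 cells, against 153, 151 and 138 TPM in KO-1 cells (log2 fold change 0.65, SE 0.08, adjusted p = 2.00e-04). Their libraries did not overlap between the genotypes, though *Tcl1* did not pass without wild-type replicate 1 or without any 1 of the knockout replicates. In the naive list, *Pecam1*, *Fbxo15* and *Dppa3* rose. *Dppa3*, also known as Stella, was a gene of low level, at 0 and 0.253 TPM in R1 cells, against 3.89, 5.63 and 4.38 TPM in KO-1 cells. Among 15 genes of the DNA methylation machinery, 5 fell and 0 rose, where 9.03% of all genes tested fell and 6.72% rose. *Dnmt3l* was the only one called, while *Dnmt3a* and *Dnmt3b*, the enzymes it assists, had log2 fold changes of −0.18 and 0.01 without passing.

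**Figure D1:**
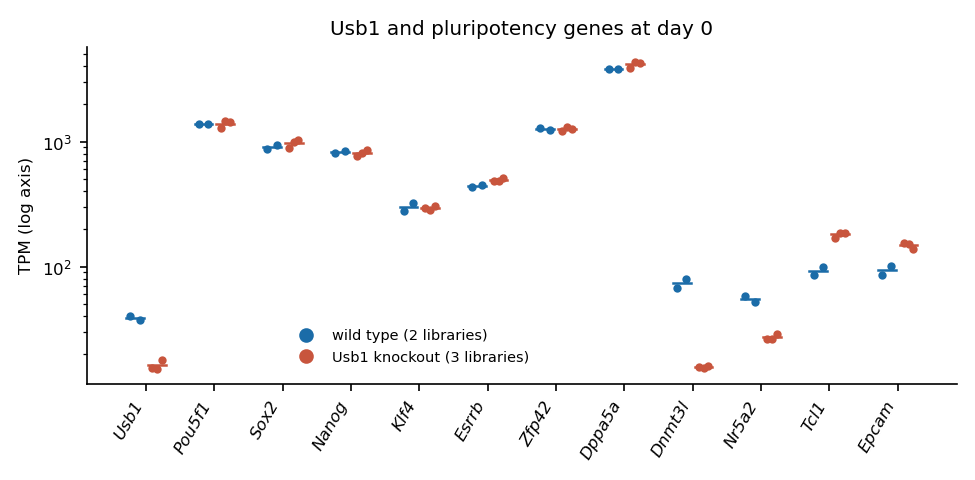
TPM, on a log axis, of *Usb1* and 11 pluripotency genes in the 2 wild-type and 3 *Usb1* knockout libraries of day 0. Points are libraries and bars the means of the groups; the groups lie farthest apart for *Usb1*, *Dnmt3l*, *Nr5a2*, *Tcl1* and *Epcam*, while those of *Pou5f1*, *Nanog*, *Sox2*, *Klf4* and *Zfp42* overlap.

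Across the transcriptome, few well-expressed genes differed by 2-fold. Of the 17768 genes tested, 709 (3.99%) were called, 383 higher (2.16%) and 326 lower (1.83%) in knockout cells, but 533 of them had a mean under 10 TPM. Of the 8568 well-expressed protein-coding genes, 109 (1.27%) were called, 48 higher and 61 lower. Most of the 8568 genes (94.2%) lay within 1.5-fold. In all of the 109 genes the libraries of the genotypes did not overlap, which held for 50.2% of the 8568 genes as well. The balance of direction depended on the scaling and on the wild-type libraries. Higher and lower genes numbered 57 and 49 after quantile normalization, 66 and 49 after scaling to an equal median, which moved the median of all genes tested from −0.03 to 0.08, and 70 and 56 with voom on recovered reads. Without wild-type replicate 1 they numbered 29 and 61, and 73 of the 109 genes were called again, and over all genes tested 338 were called. Without wild-type replicate 2, 121 were higher and 82 lower, and 2172 were called over all genes. With each wild-type library taken alone as the reference, 75 of the 109 genes kept at least a 2-fold difference, 25 higher and 50 lower.

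**Figure D2:**
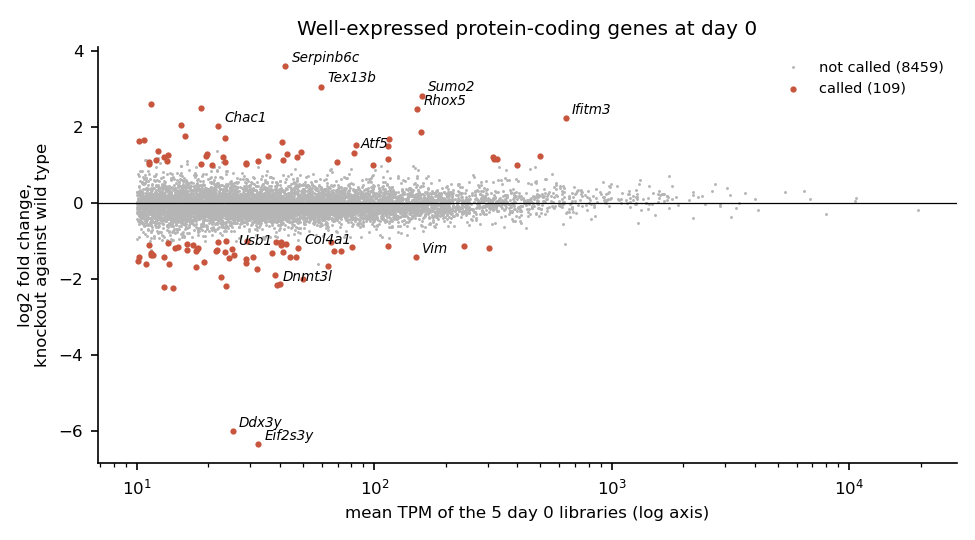
Log2 fold change at day 0 (*Usb1* knockout against wild type, log2(TPM + 1) scale) against mean TPM on a log axis for 8568 well-expressed protein-coding genes. The 109 called genes are coloured, 48 above and 61 below the line, and *Eif2s3y* and *Ddx3y* lie far under all others.

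The largest rises were taken from these 75 genes by the smaller of the differences from the 2 wild-type libraries. *Serpinb6c*, a serpin-type protease inhibitor (chromosome 13, 33879816 to 33905708), led at 2.41 and 7.95 TPM in R1 cells, against 64.6, 64.9 and 71 TPM in KO-1 cells (log2 fold change 3.62, SE 0.39, adjusted p = 4.98e-05). *Tex13b* and *Rhox5*, X-linked genes best known from germ cells, followed a like pattern. *Tex13b* was at 6.43 and 15.5 TPM in R1 cells, against 91.4, 86.95 and 98.7 TPM in KO-1 cells (log2 fold change 3.07, SE 0.23, adjusted p = 1.46e-06). *Rhox5*, a homeobox gene (chromosome X, 37804842 to 37808876), was at 43.6 and 36.5 TPM in R1 cells, against 224, 232 and 223 TPM in KO-1 cells (log2 fold change 2.47, SE 0.16, adjusted p = 4.18e-07). *Ifitm3*, an interferon-inducible membrane protein that restricts virus entry (chromosome 7, 141009586 to 141010770), was the most highly expressed of the 12 and among the most even, at 195 and 196 TPM in R1 cells, against 904, 962 and 935 TPM in KO-1 cells (log2 fold change 2.25, SE 0.08, adjusted p = 7.57e-10). Its libraries differed by little within a genotype. *Hopx*, a homeodomain protein that does not bind DNA, was at 4.97 and 4.32 TPM in R1 cells, against 21.7, 22.6 and 22.8 TPM in KO-1 cells (log2 fold change 2.05, SE 0.17, adjusted p = 3.37e-06). In none of these did a knockout library come near the wild-type range.

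Genes of epithelia were among the 12 rises. *Cldn4*, a tight-junction claudin, was at 39.999 and 36.6 TPM in R1 cells, against 120.2, 114 and 107 TPM in KO-1 cells (log2 fold change 1.54, SE 0.09, adjusted p = 1.18e-07). *Krt17*, a keratin, was at 58.3 and 62.3 TPM in R1 cells, against 196, 232 and 241 TPM in KO-1 cells (log2 fold change 1.86, SE 0.40, adjusted p = 0.0075). The call of *Krt17* was lost without wild-type replicate 1. The remaining rises were less even or of lower level. *Apoc1*, an apolipoprotein, was at 10.7 and 7.89 TPM in R1 cells, against 28.8, 30.95 and 38.8 TPM in KO-1 cells (log2 fold change 1.72, SE 0.19, adjusted p = 6.64e-05). *Fetub*, which encodes fetuin B, was at 4.69 and 3.11 TPM in R1 cells, against 19.1, 10.3 and 13.9 TPM in KO-1 cells (log2 fold change 1.64, SE 0.31, adjusted p = 0.00365). *Mef2b*, a transcription factor of the MADS box family, was at 1.34 and 9.33 TPM in R1 cells, against 29.01, 21.6 and 32.2 TPM in KO-1 cells, so its fold depended on the wild-type library taken as reference. *Sumo2*, a ubiquitin-like modifier with many processed copies in the genome, was at 35.3 and 30.4 TPM in R1 cells, against 215, 223 and 288 TPM in KO-1 cells (log2 fold change 2.84, SE 0.52, adjusted p = 0.00309). Its level varied from 41.6 to 228.1 TPM between the libraries of day 3, within the genotypes as well, so its value is uncertain. *Chac1* is described with its pathway.

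**Figure D3:**
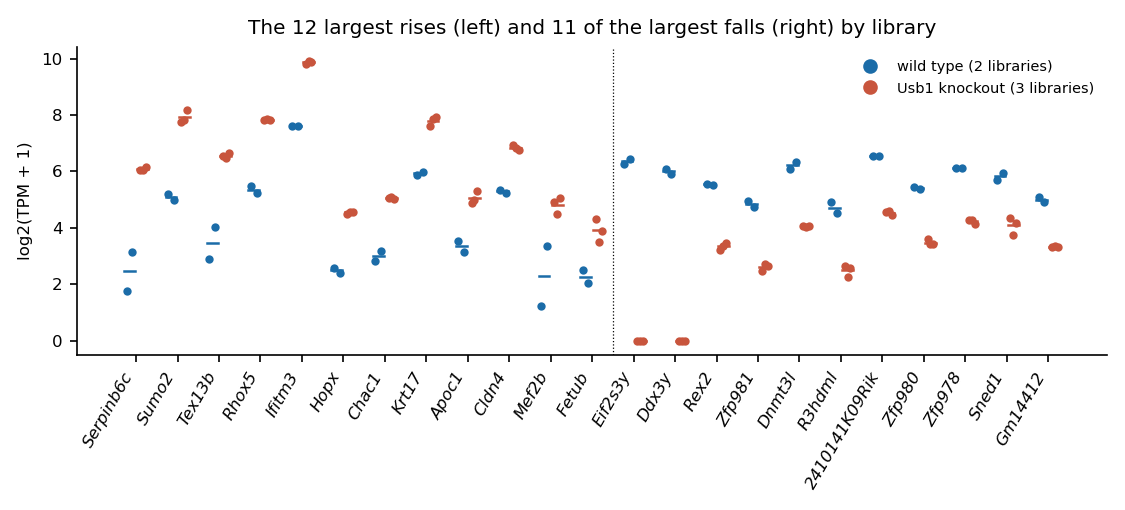
Level, as log2(TPM + 1), of the 12 largest rises and 11 of the 12 largest falls among well-expressed protein-coding genes in each library of day 0. Points are libraries and bars group means; no knockout library lies within the wild-type range for any of the 23 genes shown.

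The deepest falls were those of *Eif2s3y*, *Ddx3y* and *Uty*, Y-linked genes which, with *Uba1y*, had no reads in any knockout library of any day. *Eif2s3y*, the Y copy of a translation initiation factor subunit, was at 76.1 and 85.6 TPM in wild-type cells. *Ddx3y*, the Y copy of an RNA helicase, was at 67.5 and 59.3 TPM. *Uty*, a histone demethylase relative, was at 13.98 and 14.9 TPM, and *Uba1y*, a ubiquitin-activating enzyme, at 4.71 and 2.07 TPM. A count of 0 allows up to 3 reads, and this limit was set in each library, for counting error only. Against the mean of the 2 wild-type libraries, *Eif2s3y* was then at least 523-fold lower, *Ddx3y* at least 513-fold and *Uty* at least 219.9-fold. For *Uba1y* the bound was 21.3-fold against that mean, and smaller against wild-type replicate 2 alone. *Kdm5d* was at 0 in both genotypes. All genes of chromosome Y outside the region shared with chromosome X summed to 186 and 188 TPM in R1 cells and to between 2.65 and 6.36 TPM in KO-1 cells, where 2 to 4 other genes kept 16 to 27 reads per library. In contrast *Gm47283*, listed on chromosome Y at 90784738 to 90816464 within that region, had 292 and 252 TPM in R1 and 759, 547 and 644 TPM in KO-1 (log2 fold change 1.24, SE 0.38, adjusted p = 0.0409). Its level in the wild-type libraries of the later days ran from 307.5 to 962.5 TPM, overlapping those of the knockout, where it did not pass at day 1 or day 3. Among 8 X-linked partners of Y-linked genes, only *Ddx3x* passed the test, at 481 and 459 TPM in R1 cells, against 378, 379 and 379 TPM in KO-1 cells (log2 fold change −0.31). The libraries of the KO-1 line thus had no reads of these 4 Y-linked genes as well as having low *Usb1*, and which other differences go with the one or the other cannot be told apart.

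The other named falls were of *Rex2*, *Zfp981*, *Zfp980* and *Zfp978*, described next, and of genes elsewhere. *R3hdml* was at 28.9 and 21.9 TPM in R1 cells, against 5.35, 3.83 and 4.96 TPM in KO-1 cells (log2 fold change −2.20, SE 0.21, adjusted p = 1.49e-05). *2410141K09Rik* was at 91.9 and 91.6 TPM in R1 cells, against 22.5, 23.5 and 21.1 TPM in KO-1 cells (log2 fold change −1.99, SE 0.13, adjusted p = 4.18e-07). Both fell evenly over the knockout libraries. *Sned1*, an extracellular matrix protein, was at 50.4 and 61.3 TPM in R1 cells, against 19.4, 12.5 and 17.02 TPM in KO-1 cells (log2 fold change −1.73, SE 0.22, adjusted p = 1.72e-04). *Gm14412* was at 33.1 and 28.8 TPM in R1 cells, against 8.91, 9.14 and 9.06 TPM in KO-1 cells (log2 fold change −1.67, SE 0.25, adjusted p = 7.96e-04), and *Dnmt3l* is given above. In each of them the groups lay apart.

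A stretch of chromosome 4 held a cluster of lower protein-coding genes. Between the start of *Zfp980* and the end of *Zfp534* (145670685 to 147702553, GRCm38), all 17 protein-coding genes tested were lower by value and 14 of them were called. Of the 13 that were well expressed, 12 were called. With pseudogenes and noncoding genes included, 45 genes were tested there, and 21 were called lower and 0 higher. Of all genes tested, 1.83% were called lower. The ends of the stretch were set after its values were seen, so no test of it is given. Most of these genes encode zinc finger proteins of near-identical sequence, so reads may have been split between copies and the value of a single gene is uncertain. The summed level of the 17 genes was 735 and 695 TPM in R1 and 262, 261 and 262 TPM in KO-1. This sum leaves out the pseudogenes and noncoding genes among the 45 tested there, and reads split between copies of unlike length would also move it. *Rex2* was at 46.02 and 44.96 TPM in R1 cells, against 8.37, 9.24 and 10.1 TPM in KO-1 cells (log2 fold change −2.19, SE 0.19, adjusted p = 6.21e-06). *Zfp981* was at 30.1 and 25.4 TPM in R1 cells, against 4.59, 5.56 and 5.21 TPM in KO-1 cells (log2 fold change −2.23, SE 0.16, adjusted p = 1.03e-06). *Zfp980* was at 42.3 and 40.8 TPM in R1 cells, against 11.03, 9.77 and 9.64 TPM in KO-1 cells (log2 fold change −1.93, SE 0.14, adjusted p = 1.46e-06), and *Zfp978* at 68.8 and 68.4 TPM in R1 cells, against 18.5, 18.4 and 16.7 TPM in KO-1 cells (log2 fold change −1.89, SE 0.15, adjusted p = 3.37e-06). The smallest changes were those of *Zfp992* at −0.41, which passed the test, and of *Zfp993* (−0.61) and *Zfp986* (−0.78), which did not. The median log2 fold change of the 17 genes was −1.37 at day 0, −1.08 at day 1 and −0.63 at day 3, with the stretch chosen on day 0.

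The promoters of 8 of these genes share a run of sequence, which is shown because the genes of the stretch moved together. RefSeq holds the 250 bases before the annotated start site for 11 of the 17 genes by symbol (GRCm38.p6), and the longest run common to at least 8 of them has 28 bases. It stands in *Zfp980*, *Zfp987*, *Zfp600*, *Rex2*, *Zfp988*, *Zfp982*, *Zfp985* and *Zfp534*, and in no other of 27025 genes with a promoter in the table, on either strand. *Zfp981* and *Zfp978*, with log2 fold changes of −2.23 and −1.89, are not among the 8 genes with the run. The run was searched for in the genes of the stretch themselves, so its number of matches is a description. The 120 bases before the start site of 5 of them follow, 5′ to 3′ on the strand of the gene, with the run in capitals.
Zfp980 (chr4:145670577-145670696, plus strand): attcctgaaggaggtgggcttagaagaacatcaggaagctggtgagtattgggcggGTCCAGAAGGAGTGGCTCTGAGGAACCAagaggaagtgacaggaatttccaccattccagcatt
Zfp600 (chr4:146156707-146156826, plus strand): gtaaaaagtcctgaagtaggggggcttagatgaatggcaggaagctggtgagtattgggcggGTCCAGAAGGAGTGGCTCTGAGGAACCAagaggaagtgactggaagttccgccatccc
Rex2 (chr4:147021730-147021849, plus strand): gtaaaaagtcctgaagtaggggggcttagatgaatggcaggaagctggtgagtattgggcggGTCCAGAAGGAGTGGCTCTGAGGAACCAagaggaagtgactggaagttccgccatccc
Zfp985 (chr4:147553157-147553276, plus strand): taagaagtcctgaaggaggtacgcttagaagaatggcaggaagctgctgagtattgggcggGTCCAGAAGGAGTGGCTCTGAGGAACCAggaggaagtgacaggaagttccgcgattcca
Zfp534 (chr4:147702632-147702751, minus strand): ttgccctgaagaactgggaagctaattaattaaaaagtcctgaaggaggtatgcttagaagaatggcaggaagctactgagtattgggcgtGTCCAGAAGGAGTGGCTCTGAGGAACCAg
The stretch printed for *Zfp600* is the same as that for *Rex2*.

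Genes of the amino acid stress response that passed the test were all higher in knockout cells. This response, run by the transcription factor ATF4, raises amino acid synthesis and uptake when amino acids are short or translation initiation is held back. Of 19 genes tested, 11 rose and 0 fell, against 6.72% and 9.03% of all genes tested, and the median log2 fold change was 0.67. The counts were 9 and 0 without wild-type replicate 1, and 6 and 0 in the 5 libraries alone. Of the genes called, *Chac1*, which degrades glutathione (chromosome 2, 119351229 to 119354381), was at 6.14 and 8.0 TPM in R1 cells, against 32.02, 32.7 and 31.2 TPM in KO-1 cells (log2 fold change 2.04, SE 0.26, adjusted p = 2.30e-04). *Atf5*, a relative of ATF4, was at 40.2 and 44.98 TPM in R1 cells, against 107, 103 and 116 TPM in KO-1 cells (log2 fold change 1.33, SE 0.07, adjusted p = 5.40e-08). Both were raised to a like extent in the 3 knockout libraries. *Nupr1*, a small stress-induced nuclear protein, was at 1.42 and 2.69 TPM in R1 cells, against 7.67, 5.995 and 6.73 TPM in KO-1 cells (log2 fold change 1.38, SE 0.22, adjusted p = 0.00119). *Cebpb*, a bZIP transcription factor, was at 7.52 and 13.4 TPM in R1 cells, against 27.5, 25.6 and 25.1 TPM in KO-1 cells (log2 fold change 1.29, SE 0.18, adjusted p = 3.86e-04). All 4 had each knockout library above both wild-type libraries, and *Cebpb* alone lost its call without wild-type replicate 1.

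Members below 2-fold that passed the test moved the same way. *Atf4* itself was at 311 and 305 TPM in R1 cells, against 455, 479 and 464 TPM in KO-1 cells (log2 fold change 0.60, SE 0.06, adjusted p = 1.28e-05). *Asns*, asparagine synthetase, was at 238 and 219 TPM in R1 cells, against 335, 341 and 345 TPM in KO-1 cells (log2 fold change 0.58, SE 0.06, adjusted p = 6.64e-05). *Trib3*, a pseudokinase induced by ATF4, was at 55.1 and 56.6 TPM in R1 cells, against 101, 83.4 and 83.8 TPM in KO-1 cells (log2 fold change 0.67, SE 0.12, adjusted p = 0.00257). *Gdf15*, a secreted stress cytokine, and *Atf3*, a further bZIP factor, rose by log2 fold changes of 0.79 and 0.89. *Ddit3*, which encodes CHOP, was at 11.1 and 14.6 TPM in R1 cells, against 18.5, 15.8 and 15.3 TPM in KO-1 cells and did not pass (adjusted p = 0.15). The neighbouring list of threonine, glycine and one-carbon metabolism had 7 rises and 2 falls among 18 genes, with a median of 0.17. Here too 6.72% of all genes tested rose and 9.03% fell. *Psat1* and *Psph* of serine synthesis had the lowest adjusted p. *Psat1* was at 185 and 183 TPM in R1 cells, against 304, 317 and 309 TPM in KO-1 cells (log2 fold change 0.75, SE 0.06, adjusted p = 2.52e-06). *Psph* was at 26.4 and 22.7 TPM in R1 cells, against 40.3, 41.5 and 43.3 TPM in KO-1 cells (log2 fold change 0.75, SE 0.08, adjusted p = 5.91e-05). *Phgdh*, *Shmt2* and *Mthfd2* of the same route rose by 0.57, 0.51 and 0.64 on the log2 scale. Among 18 genes of the unfolded protein and heat shock responses, 3 rose and 1, *Xbp1*, fell (log2 fold change −0.44), and 1 and 1 without wild-type replicate 1.

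ATF4 and its partners bind a composite element, and the letters TGATGNAA were searched for on both strands of the RefSeq promoters (GRCm38.p6, 250 bases before to 50 after each start). They were present in 7 of 18 genes of the amino acid list with a promoter (38.9%) and in 4.51% of all 27025 genes. These were *Trib3*, *Asns*, *Chac1*, *Atf3*, *Slc7a11*, *Nupr1* and *Vldlr*. Of the 17 genes that were also tested, all 6 with a match rose, as did 5 of the 11 without one. The list was drawn up from knowledge of this response, so the share describes the list only, and a match is not a bound site. The 250 bases before the start site follow for *Chac1*, and 120 for *Nupr1*, also called, and *Asns*, 5′ to 3′ with the matches in capitals, which read TTGCATCA where the element lies on the other strand.
Chac1 (chr2:119350992-119351241, plus strand): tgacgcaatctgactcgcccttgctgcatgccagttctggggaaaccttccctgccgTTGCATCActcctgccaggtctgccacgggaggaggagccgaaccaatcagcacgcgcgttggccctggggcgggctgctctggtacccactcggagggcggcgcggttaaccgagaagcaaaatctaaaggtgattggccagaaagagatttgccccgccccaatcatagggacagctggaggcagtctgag
Nupr1 (chr7:126625471-126625590, minus strand): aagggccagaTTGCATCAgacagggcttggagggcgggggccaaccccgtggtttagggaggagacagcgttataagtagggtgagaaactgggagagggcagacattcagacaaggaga
Asns (chr6:7693210-7693329, minus strand): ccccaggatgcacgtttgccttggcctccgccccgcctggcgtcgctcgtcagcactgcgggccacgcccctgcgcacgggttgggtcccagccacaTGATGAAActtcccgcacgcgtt

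Among genes of glycolysis and of the hypoxia response, more fell than rose, though most did not pass the test. Over all genes tested 9.03% fell and 6.72% rose. Of 23 glycolysis and glucose uptake entries tested, 10 fell and 1 rose, with a median of −0.23. Of 19 hypoxia genes 9 fell and 0 rose, with a median of −0.30. The lists share *Pdk1*, *Slc2a1* and *Ldha*. *Pdk1*, the kinase that holds pyruvate out of the mitochondrion, was at 82.6 and 84.1 TPM in R1 cells, against 50.1, 49.9 and 52.7 TPM in KO-1 cells (log2 fold change −0.70, SE 0.09, adjusted p = 1.44e-04). *Pfkl*, a phosphofructokinase subunit, was at 134 and 127 TPM in R1 cells, against 90.6, 91.2 and 104 TPM in KO-1 cells (log2 fold change −0.45, SE 0.07, adjusted p = 0.00113). *Slc2a1*, the glucose transporter GLUT1, was at 760.1 and 780.3 TPM in R1 cells, against 577, 490.0 and 519.7 TPM in KO-1 cells (log2 fold change −0.54). The one hypoxia gene called was *Bnip3*, a mitophagy receptor, at 13.7 and 11.3 TPM in R1 cells, against 4.49, 3.05 and 6.32 TPM in KO-1 cells (log2 fold change −1.30, SE 0.19, adjusted p = 5.34e-04), and its relative *Bnip3l* fell by 0.50 on the log2 scale. Without wild-type replicate 1, 5 glycolysis and 6 hypoxia genes fell and 0 rose. Scaling to an equal median left 3 falls beside 2 rises for glycolysis and 5 beside 1 for hypoxia. In the 5 libraries alone 3 and 4 fell. *Gapdh*, which has many processed copies, varied from 60.9 to 177 TPM among the knockout libraries alone.

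Defining markers of primitive endoderm, the extraembryonic lineage next to the epiblast, were at most 2.43 TPM in all 5 libraries, and other genes of its list were lower in knockout cells. Of 15 primitive endoderm genes tested, 10 fell and 0 rose, where 9.03% of all genes tested fell. *Cubn*, *Srgn* and *Gata6*, given below, reached 1 TPM in wild-type libraries only, so they were tested through the group where they were high. Such genes could pass only as falls, and the count leans that way by construction. The median was −0.49. Without wild-type replicate 1, 9 fell, and in the 5 libraries of day 0 alone 4 fell. In bulk RNA, fewer cells of a type and less RNA per cell cannot be told apart. *Col4a1* and *Col4a2*, collagens of the basement membrane that these cells also make, were at 72.7 and 71.1 TPM in R1 cells, against 31.7, 31.9 and 30.4 TPM in KO-1 cells (log2 fold change −1.17, SE 0.12, adjusted p = 2.33e-05) and at 38.3 and 29.2 TPM in R1 cells, against 15.9, 12.2 and 12.6 TPM in KO-1 cells (log2 fold change −1.25, SE 0.16, adjusted p = 1.72e-04). *Cubn*, an endocytic receptor, was at 2.299 and 2.45 TPM in R1 cells, against 0.247, 0.0841 and 0.131 TPM in KO-1 cells (log2 fold change −1.55, SE 0.15, adjusted p = 2.48e-05). *Srgn*, a proteoglycan, was at 1.81 and 2.26 TPM in R1 cells, against 0.493, 0.191 and 0 TPM in KO-1 cells (log2 fold change −1.32, SE 0.22, adjusted p = 0.00131). Of the defining markers, *Gata6* was at 1.09 and 1.13 TPM in R1 cells, against 0.194, 0.2996 and 0.272 TPM in KO-1 cells. *Pdgfra* was at 0.752 to 1.13 TPM in R1 and 0.292 to 0.562 TPM in KO-1 cells. *Gata4*, at 1.02 to 2.43 TPM in R1 and 0.556 to 2.11 TPM in KO-1 cells, overlapped between the genotypes. *Sox17* and *Foxa2* stayed under 1 TPM in every library. The 5 markers fixed for this lineage summed to 2.857 and 5.494 TPM in wild-type and to 1.438 to 2.864 TPM in knockout cells, so these sums overlapped. At day 1, 13 of these 15 genes fell and 1 rose, and at day 3, 14 fell and 0 rose. The shares of all genes tested that rose or fell at those days were not counted at this threshold.

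Of the other lineage lists, trophectoderm had a median log2 fold change of 0.46 and mesendoderm and mesoderm of 0.51, with few genes passing. Without wild-type replicate 1 these medians were 0.09 and −0.09, so no shift of either list was read from them. For the counts that follow, 6.72% of all genes tested rose and 9.03% fell. Of 11 trophectoderm genes 4 rose and 1 fell, none called. *Krt8*, the keratin of simple epithelia, was at 36.5 and 40.4 TPM in R1 cells, against 62.6, 70.1 and 67.2 TPM in KO-1 cells (log2 fold change 0.78, SE 0.08, adjusted p = 4.25e-05) and *Tfap2c* at 20.3 and 22.6 TPM in R1 cells, against 34.7, 33.5 and 33.9 TPM in KO-1 cells (log2 fold change 0.65, SE 0.13, adjusted p = 0.00472). The counts of this list were 2 and 1 without wild-type replicate 1. Of 11 formative and primed genes 0 rose and 2 fell, *Sox3* among them. *Sox3*, a SoxB1 factor on chromosome X, was at 23.6 and 8.53 TPM in R1 cells, against 2.62, 2.43 and 3.15 TPM in KO-1 cells (log2 fold change −2.04, SE 0.27, adjusted p = 2.79e-04). Of 7 neuroectoderm genes 2 rose and 1 fell, and 0 and 1 without wild-type replicate 1. The 4 markers of that lineage summed to 14.3 and 18.97 TPM in wild-type and 21.1 to 24.1 TPM in knockout cells. *Sox1*, a neural SoxB1 factor, was at 9.49 and 9.81 TPM in R1 cells, against 12.8, 15.03 and 12.8 TPM in KO-1 cells (log2 fold change 0.45, SE 0.12, adjusted p = 0.0229). *Ncam1*, an adhesion molecule, was at 22.3 and 24.9 TPM in R1 cells, against 17.2, 14.2 and 14.4 TPM in KO-1 cells (log2 fold change −0.60, SE 0.13, adjusted p = 0.00892). Of 9 mesendoderm and mesoderm genes, *Snai1* alone passed, at 4.91 and 8.36 TPM in R1 cells, against 14.03, 7.88 and 16.6 TPM in KO-1 cells (log2 fold change 0.84, SE 0.24, adjusted p = 0.0284), with overlapping groups. Of 7 feeder fibroblast genes 2 rose, *Thy1* and *Twist1*, with *Twist1* at 0.9001 and 0.693 TPM in R1 cells, against 2.93, 3.6 and 5.07 TPM in KO-1 cells (log2 fold change 1.42, SE 0.21, adjusted p = 6.49e-04). Of the 30 genes listed for 2-cell-like cells only 1 was tested, and it did not pass. In the adhesion list, where 8 of 19 genes rose and 5 fell, *Vim*, the intermediate filament protein vimentin, was at 239.7 and 241 TPM in R1 cells, against 86.4, 91.9 and 88.3 TPM in KO-1 cells (log2 fold change −1.42, SE 0.05, adjusted p = 7.57e-10). Beside this fall stood the rises of *Cldn4*, *Krt8* and *Epcam*, and that of *Twist1*, which is in the adhesion list too. The list thus gave no single direction.

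**Figure D4:**
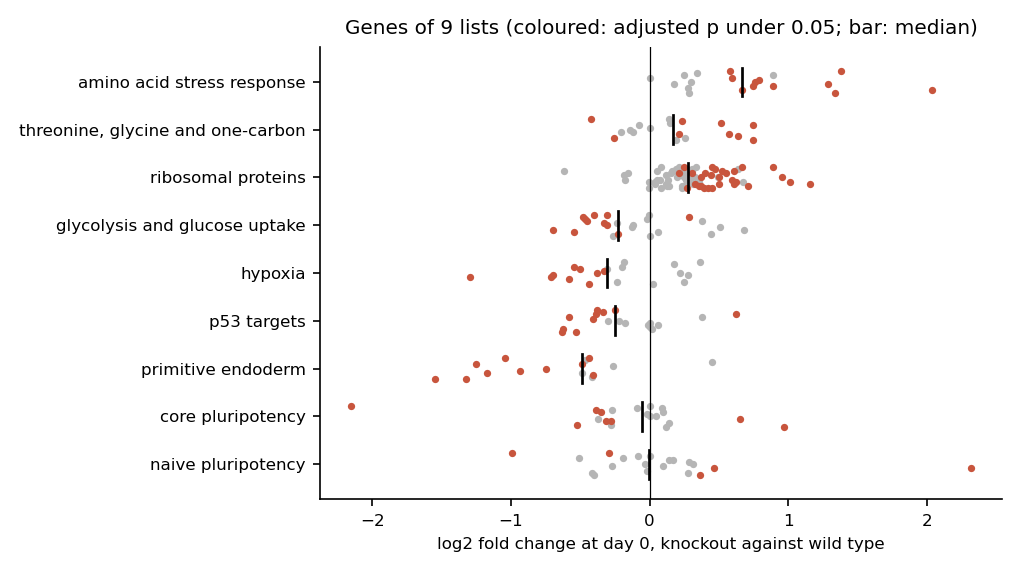
Log2 fold change at day 0 of each tested gene of 9 lists, one point a gene, coloured at an adjusted p under 0.05, with the median of each list as a bar. The amino acid list lies to the right with a median of 0.67 and 11 coloured genes, and the primitive endoderm list to the left with a median of −0.49 and 10.

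Among ribosomal protein genes those that passed the test were higher. Of 76 tested 29 rose and 0 fell, where 6.72% of all genes rose, with a median log2 fold change of 0.28, and *Rps29* and *Rps27*, both of the small subunit, were called. *Rps29* was at 219 and 275 TPM in R1 cells, against 426, 575 and 501 TPM in KO-1 cells (log2 fold change 1.01, SE 0.20, adjusted p = 0.00457). *Rps27* was at 128 and 237 TPM in R1 cells, against 297, 608 and 328 TPM in KO-1 cells (log2 fold change 1.16, SE 0.34, adjusted p = 0.0363), with 1 knockout library far above the others. Of the 76 genes, 11 rose without wild-type replicate 1, 14 rose in the 5 libraries alone, and neither of the 2 named was called. The difference between the genotypes also ran with exon length. In 5 equal bins of well-expressed genes, from the shortest to the longest, the median log2 fold change was 0.10, 0.00, −0.05, −0.10 and −0.17. It was 0.05, −0.03, −0.09, −0.17 and −0.27 at day 1 and between 0.01 and 0.03 in every bin at day 3. With the trend on length taken out, an adjustment added after the data were seen, 14 ribosomal protein genes rose and 0 fell. The part of length in this result was not otherwise tested. Under the same adjustment, 13 amino acid stress genes rose and 0 fell, 7 hypoxia genes fell and 1 rose, and 9 primitive endoderm genes fell and 0 rose.

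Genes of the p53 response that passed the test were lower, with one exception. Of 19 p53 targets 9 fell and 1 rose, none called, with a median of −0.25, where 9.03% of all genes fell and 6.72% rose. *Btg2*, an antiproliferative gene, had the lowest adjusted p, at 77 and 69.7 TPM in R1 cells, against 50.6, 50.3 and 50.2 TPM in KO-1 cells (log2 fold change −0.53, SE 0.06, adjusted p = 1.36e-04). *Cdkn1a*, which encodes the CDK inhibitor p21, was the one that rose, at 30.99 and 40.1 TPM in R1 cells, against 55.2, 52.6 and 57.1 TPM in KO-1 cells (log2 fold change 0.63, SE 0.09, adjusted p = 7.65e-04). Falls and rises numbered 7 and 1 without wild-type replicate 1, and 4 and 0 in the 5 libraries alone. *Cdkn1c*, an imprinted CDK inhibitor, was at 92.5 and 116 TPM in R1 cells, against 36.01, 45.5 and 46.5 TPM in KO-1 cells (log2 fold change −1.27, SE 0.11, adjusted p = 9.64e-06). *Cdkn2c*, a further one, was at 0 and 0.336 TPM in R1 cells, against 0.887, 1.64 and 1.78 TPM in KO-1 cells (log2 fold change 1.05, SE 0.26, adjusted p = 0.0147). *Cdkn2a*, which was at 0 and 7.32 TPM in R1 cells, against 16.1, 17.3 and 16.7 TPM in KO-1 cells (log2 fold change 2.62, SE 0.54, adjusted p = 0.00617), was at 0 in one wild-type library, so its fold depended on the other. Of 22 cyclin and CDK inhibitor genes 5 rose and 2 fell, and 3 and 1 without wild-type replicate 1. Of 32 DNA replication genes 4 rose and 2 fell, against 6.72% and 9.03% of all genes, and 1 and 1 without wild-type replicate 1. The list was led by *Mcm6*, a subunit of the replicative helicase, at 561 and 558 TPM in R1 cells, against 344, 363 and 359 TPM in KO-1 cells (log2 fold change −0.65, SE 0.05, adjusted p = 3.55e-06).

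Germline, imprinted and chromatin lists gave single genes. Their counts stand beside 6.72% of all genes tested rising and 9.03% falling. Of 26 germline genes 3 rose and 5 fell, and 3 and 2 without wild-type replicate 1. The 3 rises were all genes of the X-linked *Rhox* cluster. Beside *Rhox5*, *Rhox6* was at 0 and 1.12 TPM in R1 cells, against 6.86, 10.4 and 7.31 TPM in KO-1 cells (log2 fold change 2.64, SE 0.34, adjusted p = 2.41e-04). *Rhox9* was at 0 and 0.0908 TPM in R1 cells, against 1.57, 1.68 and 1.92 TPM in KO-1 cells (log2 fold change 1.38, SE 0.24, adjusted p = 0.00189). *Stra8*, the RA-induced gene of meiosis entry, was at 25.4 and 25.05 TPM in R1 cells, against 9.01, 10.7 and 11.2 TPM in KO-1 cells (log2 fold change −1.22, SE 0.08, adjusted p = 4.18e-07), with the knockout libraries all lower. Of 37 imprinted genes 1 rose and 7 fell, and 4 and 5 at an equal median. Only *Cdkn1c* was called. *Grb10*, an adaptor that restrains insulin signalling, rose from 63.6 and 69.3 to 140.4, 123 and 137 TPM (log2 fold change 0.99), and *Meg3* and *Rian*, noncoding RNAs of one imprinted cluster, fell, with log2 fold changes of −0.78 and −0.76. Of 27 polycomb genes 2 rose and 6 fell, a balance that turned to 10 and 4 without wild-type replicate 2, was 0 and 3 without wild-type replicate 1 and became 6 and 4 after quantile or equal-median scaling, with *Aebp2* at 53.7 and 46.6 TPM in R1 cells, against 33.7, 33.9 and 31.5 TPM in KO-1 cells (log2 fold change −0.58).

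Among the signalling pathways, the Nodal antagonists stood out by level. The counts of these lists stand beside 6.72% of all genes tested rising and 9.03% falling. *Lefty2* was at 153 and 199 TPM in R1 cells, against 418, 417 and 396 TPM in KO-1 cells (log2 fold change 1.23, SE 0.15, adjusted p = 1.36e-04). Its neighbour *Lefty1*, a near copy, was at 241 and 263 TPM in R1 cells, against 398, 367 and 393 TPM in KO-1 cells and fell short of 2-fold (log2 fold change 0.61, SE 0.18, adjusted p = 0.0346). Of 17 genes of this pathway 3 rose and 2 fell, and 1 and 1 without wild-type replicate 1. Of 20 genes of the LIF and STAT3 pathway, which maintains self-renewal, 2 rose and 2 fell, and 4 and 2 at an equal median. *Cebpb* was the one called, and *Lifr*, the LIF receptor, was at 71.4 and 69.2 TPM in R1 cells, against 48.5, 38.1 and 38.9 TPM in KO-1 cells (log2 fold change −0.74, SE 0.13, adjusted p = 0.00222). Of 19 FGF and ERK feedback genes 2 rose and 5 fell, and 1 and 3 without wild-type replicate 1, with *Dusp5*, a phosphatase of ERK, at 2.03 and 13.3 TPM in R1 cells, against 25.9, 20.7 and 18.2 TPM in KO-1 cells (log2 fold change 1.76, SE 0.41, adjusted p = 0.0109). The fold of *Dusp5* depended on the wild-type library taken as reference. Of 14 Wnt genes 2 rose and 2 fell, *Wnt7b* at 1.45 and 1.94 TPM in R1 cells, against 4.82, 4.19 and 4.25 TPM in KO-1 cells (log2 fold change 1.01, SE 0.16, adjusted p = 0.0013) and *Sp5*, a Wnt target, at 0 and 1.29 TPM in R1 cells, against 2.89, 2.49 and 1.76 TPM in KO-1 cells being called. Both calls were lost without wild-type replicate 1. Of 16 BMP and Id genes 1 rose and 5 fell, with *Id4* at 3.32 and 4.58 TPM in R1 cells, against 8.05, 8.87 and 11 TPM in KO-1 cells (log2 fold change 1.06, SE 0.18, adjusted p = 0.00165).

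Of 24 cholesterol synthesis genes 5 rose and 0 fell, and 1 rose without wild-type replicate 1. For this and the next lists, 6.72% of all genes tested rose and 9.03% fell. Of 14 interferon response genes 3 rose and 1 fell, and 1 and 0 without that library, and apart from *Ifitm3* none was called. *Ifitm1*, its neighbour in a cluster of like genes, rose from 109 and 94.1 to 136, 148 and 162 TPM. Of 13 protein genes of the mitochondrial genome 0 rose and 2 fell, with a median of 0.05. These 2 did not pass without wild-type replicate 1, at an equal median or in the 5 libraries alone, and 2 rose and 1 fell without wild-type replicate 2. They were *mt-Nd4* at 3743 and 3590.5 TPM in R1 cells, against 3003, 2829 and 2751 TPM in KO-1 cells (log2 fold change −0.36, SE 0.09, adjusted p = 0.0129) and *mt-Cytb* at 8845 and 9111 TPM in R1 cells, against 7673, 7374 and 6958 TPM in KO-1 cells (log2 fold change −0.29, SE 0.09, adjusted p = 0.0337). Of 18 snoRNA host genes 1 rose and 1 fell, *Snhg20* from 35.8 and 47.9 to 64.6, 65.3 and 70.3 TPM and *Snhg14* from 15.1 and 14.1 to 9.74, 10.03 and 9.53 TPM.

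The edited gene lies on chromosome 8, and its neighbours were read one by one. Within 500 kb of *Usb1*, 21 other protein-coding genes were tested, of which 2 rose, 3 fell and 0 were called. Of all genes tested, 6.72% rose and 9.03% fell. *Kifc3*, a minus-end kinesin, was at 58.8 and 65.2 TPM in R1 cells, against 37.5, 33.7 and 34.2 TPM in KO-1 cells (log2 fold change −0.80, SE 0.10, adjusted p = 1.18e-04). *Slc38a7*, a lysosomal glutamine transporter, was at 51.8 and 47.9 TPM in R1 cells, against 78.2, 70.1 and 69.04 TPM in KO-1 cells (log2 fold change 0.53, SE 0.10, adjusted p = 0.00371). *Polr2c*, a subunit of RNA polymerase II, rose by 0.28, and *Dok4* and *Drc7* fell, with log2 fold changes of −0.52 and −0.84. *Drc7* reached 1 TPM in wild-type libraries only, so it could pass only as a fall. The genes on either side, *Zfp319* and *Mmp15*, did not pass (adjusted p = 0.54 and adjusted p = 0.0698). Over the whole of chromosome 8, the median log2 fold change of 535 well-expressed genes was 0.06, while those of the other 19 chromosomes tabulated lay between −0.09 and −0.03. It was the highest in each of the 6 pairs of a knockout with a wild-type library. Taking out the trend on length left it at 0.09 with the others at most 0.04, and taking out that on GC content at 0.03 with the others at most −0.02. It was also the highest at day 1 (0.01) and at day 3 (0.11), where chromosome 6 reached 0.10. No test of chromosomes was made, and the number of copies of chromosome 8 in the line was not measured.

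The same comparison at day 1 and day 3 uses other libraries throughout. Of the 8568 well-expressed genes, 115 (1.34%) were called at day 1 and 72 (0.84%) at day 3. The 109 genes of day 0 were called again, and in the same direction, at day 1 in 54 cases (49.5%), with 0 opposite calls. At day 3 the same held for 19 (17.4%), and 3 were called in the opposite direction. By value alone, 94.5% had the same sign at day 1 and 78.0% at day 3. The median size of the log2 fold change was 1.29 at day 0, 1.00 at day 1 and 0.47 at day 3. The genes were chosen for their size at day 0, so these medians do not show that the effect became smaller. At all 3 days 15 genes were called in the same direction, 5 higher and 10 lower. Of the 12 largest falls, 12 were called at day 1 and 6 at day 3, and of the 12 largest rises 10 and 3. *Rhox5* kept a log2 fold change of 2.48 at day 1 and 2.29 at day 3, *Tex13b* of 2.51 and 2.49, and *Ifitm3* of 2.29 and 1.24. The amino acid stress list had 13 rises and 2 falls at an adjusted p under 0.05 at day 1 and 4 and 1 at day 3. The shares of all genes tested that rose or fell at those days were not counted at this threshold. *Atf5* was at a log2 fold change of 1.15 at day 1 and 0.14 at day 3, and *Chac1* at 1.54 and 0.36. Each later day also differs from day 0 in the cells' state.

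**Figure D5:**
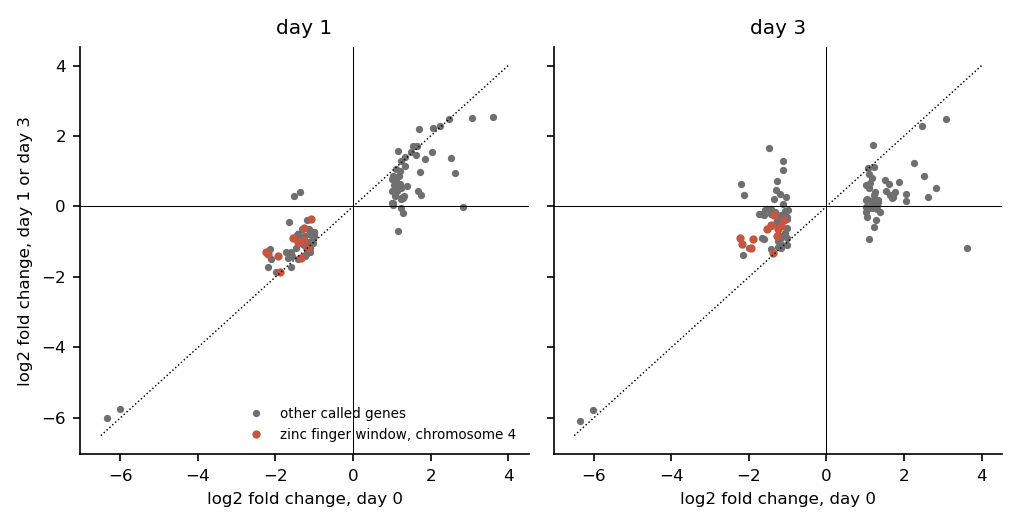
Log2 fold change between the genotypes at day 1 (left) and day 3 (right) against that at day 0 for the 109 well-expressed genes called at day 0, with the line of equal change dotted. At day 1, 54 genes were called in the same direction and at day 3, 19; the coloured genes of the chromosome 4 stretch lie below 0 in both.

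Whether the effect at day 0 differed from the mean of day 1 and day 3 was tested as a contrast in the same fit. It did so by at least 2-fold for 255 of all genes tested (1.44%), and for 12 of the 159 genes named by rule. Of these 12, 8 were called at day 0. Many of the 159 were named for their change at day 0, which favours a larger effect at that day. *Serpinb6c* was higher in knockout cells at day 0 (log2 fold change 3.62) and at day 1 (2.55), and lower by value at day 3 (−1.18), a difference of 2.93 (adjusted p = 0.00486, limma). *Nanog* and *Esrrb*, which did not pass at day 0, had log2 fold changes of 1.90 and 1.76 at day 3, and differences of −1.23 (adjusted p = 1.20e-05, limma) and −1.26 (adjusted p = 1.72e-04, limma). For *Usb1* the difference was −0.07 (SE 0.14, adjusted p = 0.809, limma).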

How the data were processed

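The libraries were RNA-seq of mouse embryonic stem cells, made with an NEBNext Ultra kit. The authors deposited TPM per gene for 54532 genes. HISAT2 2.1.0, StringTie 1.3.6 and the build GRCm38.p6 are named in the submitters' processing notes, and the study itself tested counts with DESeq2. Read counts were not used here as the main measure. TPM was taken as log2(TPM + 1), and genes with at least 1 TPM in at least 2 day 0 libraries were tested with limma 3.58.1 (R 4.3.3, intensity trend, 6 group means over all 17 libraries, Benjamini-Hochberg adjustment). Reads recovered from TPM steps were whole within 0.01 for at least 95.9% of values. At 15404379 reads or more per library on genes, counting error is small for well-expressed genes. It is not small for genes of low TPM, whose values can rest on few reads. In simulated data for the day 0 comparison over 17768 genes, 48.5% of genes changed by 1.0 on the log2 scale, the threshold itself, were called (8 false calls), and 95% of those changed by 1.5 (5 false calls). There each gene had 1 spread for all 17 libraries, and only genes above about 10 TPM were changed. In the data, both wild-type libraries of day 0 had a quality weight of 0.29. The simulation therefore does not measure the share of false calls among the 709 genes called, most of them under 10 TPM.

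Gene lists and named genes were chosen with earlier results of these data known. Named were *Usb1*, the 12 largest rises and falls, up to 4 called genes per list (or the 2 of lowest adjusted p where none was called), core and naive pluripotency, U6 and Y-linked genes, and neighbours of *Usb1*. Outside this rule, *Asns*, *Atf3*, *Atf4*, *Bnip3l*, *Ddit3*, *Dnmt3a*, *Dnmt3b*, *Gapdh*, *Gdf15*, *Gm47283*, *Grb10*, *Ifitm1*, *Ldha*, *Lefty1*, *Lifr*, *Meg3*, *Mthfd2*, *Phgdh*, *Rian*, *Shmt2*, *Slc2a1*, *Slc7a11*, *Thy1*, *Trib3*, *Vldlr* and further genes of the chromosome 4 stretch were chosen after their values were seen. Some genes that the rule names are not reported here. Gene coordinates, exon lengths and biotypes are from GENCODE M21. Alternatives were another pseudocount, filters, scalings, 5 libraries alone, weights, reads with voom, and each library left out. Adjustments for exon length and GC content were added after seeing the data.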

Additional observations from a re-analysis of the deposited data

Results flagged for a closer look

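The effect of the *Usb1* knockout at day 0 differed by at least 2-fold from its mean over day 1 and day 3 for 12 of the genes named by rule, in the contrast of the same limma fit, of which 11 are given here. Differences are given as log2 fold changes at day 0 minus that mean. Many of the genes were named for their change at day 0, which favours a larger effect at that day. They were highest for *Serpinb6c* at 2.93 (adjusted p = 0.00486) and *Sumo2* at 2.57 (adjusted p = 0.0324). *Cebpb* differed by 1.36, *Apoc1* by 1.09 and *Snai1* by 1.04, all larger at day 0. On the negative side were *R3hdml* at −1.67, *Cdkn1c* at −1.21 and *Zfp981* at −1.14, which were lower in knockout cells at day 0. *Cdkn1c* turned direction, with log2 fold changes of −1.27 at day 0, −0.85 at day 1 and 0.73 at day 3. *Esrrb* (−1.26), *Nanog* (−1.23) and *Fgf4* (−1.16) did not pass at day 0 and were higher in knockout cells at day 3. With 2 or 3 libraries a group, single libraries were not tested as standing apart from their group.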

How the results depend on the processing

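*Usb1* was lower in knockout cells under each alternative run, with log2 fold changes between −1.06 and −1.27. The 709 genes called over all genes tested became 364 with a filter of at least 5 TPM, 189 in the 5 libraries of day 0 alone, 191 with library quality weights and 2798 with the adjusted p alone. Leaving out 1 library at a time gave 338 (without wild-type replicate 1) to 2172 (without wild-type replicate 2). The 109 well-expressed genes became 1658 with the adjusted p alone and 71 at a mean of at least 20 TPM, and 90 to 203 with 1 library left out, with the same wild-type libraries at the ends. The 15 genes called at all 3 days became 212 with the adjusted p alone and 14 to 16 with 1 library left out. Named genes whose day 0 effect differed from the later days numbered 12, 6 with quality weights, and 9 to 27 with 1 library left out, again without wild-type replicate 1 and 2. Fewer genes pass a stricter filter by construction, and for the other shifts the cause was not tested. Without 1 wild-type library the other is assumed to vary like the other groups. Of 874 values of named genes called, 809 stayed past the threshold, 65 did not and 0 changed direction, with 19 of the losses in the 5 libraries alone and 12 with quality weights. Without wild-type replicate 1 the calls of, among others, *Krt17*, *Cebpb*, *Dusp5*, *Sp5*, *Wnt7b*, *Id4*, *Cdkn2c*, *Rps27* and *Rps29* were lost. Without 1 or another knockout replicate those of *Sp5*, *Wnt7b*, *Cdkn2c*, *Id4*, *Rps27* and *Rps29* were. Of 60 named genes that did not pass, 25 changed sign under some alternative, so no direction was read from them.

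A replicate block gave 636 genes called, 109 of them well expressed, 15 at all 3 days, 14 differing between days and −1.24 for *Usb1*. Correlations of deviations between same-numbered libraries of day 0 were −0.07 and −0.05. With 2 wild-type libraries their deviations mirror each other, so these values cannot decide whether the replicate numbers pair the libraries. Pairing at day 1 and day 3 was not examined. The numbers were taken as names only. Calls with the wild type are limited by its 2 libraries, and low genes by the first of them.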
